A study of Mus musculus with 6 samples.

Results

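The genes described are 39 of 40 listed cell cycle genes that act in DNA replication and mitosis, out of 19938 genes measured. They were chosen by name, with no measured value in the rule and no genes with a Kif symbol. Each was represented by its brightest probe set that matched 1 gene. Ccnb1, the cyclin B1 gene, was on the list but had no such probe set and was dropped. By role, 10 of the 39 act in origin licensing and the replicative helicase, 4 in DNA and nucleotide synthesis, 5 are cyclins or Cdk1, and 7 are mitotic or checkpoint kinases. A further 5 belong to the kinetochore and the chromosomal passenger complex, 4 to the spindle, 2 to mitotic proteolysis, and 2 (Mki67 and Top2a) to the chromosome itself.

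Expression was measured with 6 Affymetrix arrays in mouse ependyma, the ciliated lining of the brain ventricles. Laser capture took the EGFP-positive tissue of FoxJ1-EGFP brains, a reporter of Foxj1 activity that all 6 arrays shared. Wildtype and FoxJ1 null mice were compared at postnatal days 1, 7 and 14. A single array stood for each combination, so each genotype had 3 arrays and each age 2. How many animals gave the RNA of an array, and what the null allele removes, is not in the labels. No combination had a repeat array. The p-values for age and genotype therefore rest on how far the difference between the genotypes varied with age. That spread may be technical, and it also holds any real change of the genotype difference with age. FoxJ1 is a forkhead transcription factor of motile cilia; any cell with an active reporter could be captured, and laser capture can take neighbouring cells.

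Cells that divide make these genes in waves. Licensing and synthesis genes peak as cells enter S phase, largely through E2F factors, and mitotic genes peak later, through MuvB complexes with B-Myb and Foxm1 at CHR elements, often near CCAAT boxes bound by NF-Y. Ependymal cells of the mouse forebrain come from radial glia that mostly stop dividing before birth and mature into ciliated cells in the first postnatal weeks, while neural progenitors of the adjoining subventricular zone go on dividing.

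The promoters of several members are shown because the 3 elements named above recur in them. Each window holds the 150 bases before a RefSeq transcription start (build GRCm38.p6), 5′ to 3′ on the gene's strand. Capitals mark the CHR (TTTGAA), the CCAAT box bound by NF-Y (CCAAT) and an E2F site (TTCCCGC, or the variant form TTGGCGC). Each was searched on both strands. On the opposite strand a CHR reads TTCAAA, the CCAAT box reads ATTGG, and the variant E2F site reads GCGCCAA. Top2a lies at chr11:99024190-99024339 (minus strand), Mki67 at chr7:135716380-135716529 (minus), Prc1 at chr7:80294326-80294475 (plus, the second of its 2 listed starts) and Cdc20 at chr4:118437344-118437493 (minus). Ube2c lies at chr2:164769779-164769928 (plus), Cdk1 at chr10:69352913-69353062 (minus), Mcm6 at chr1:128359706-128359855 (minus), Mcm5 at chr8:75109359-75109508 (plus) and Rrm1 at chr7:102441545-102441694 (plus).
Top2a: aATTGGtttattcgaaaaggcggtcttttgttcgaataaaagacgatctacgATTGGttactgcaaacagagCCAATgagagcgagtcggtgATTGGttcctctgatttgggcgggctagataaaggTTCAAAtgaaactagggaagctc
Mki67: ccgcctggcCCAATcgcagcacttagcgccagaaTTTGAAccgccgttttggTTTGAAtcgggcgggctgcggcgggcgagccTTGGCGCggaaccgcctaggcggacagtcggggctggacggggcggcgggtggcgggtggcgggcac
Prc1: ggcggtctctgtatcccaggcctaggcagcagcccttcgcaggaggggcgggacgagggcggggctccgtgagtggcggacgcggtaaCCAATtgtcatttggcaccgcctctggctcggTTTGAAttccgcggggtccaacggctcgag
Cdc20: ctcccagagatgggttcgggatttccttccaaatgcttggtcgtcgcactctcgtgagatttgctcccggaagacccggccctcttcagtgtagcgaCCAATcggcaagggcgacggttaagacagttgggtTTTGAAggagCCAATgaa
Ube2c: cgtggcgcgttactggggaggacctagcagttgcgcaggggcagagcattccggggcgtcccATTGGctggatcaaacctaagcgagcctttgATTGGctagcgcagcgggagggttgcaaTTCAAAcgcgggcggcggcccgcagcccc
Cdk1: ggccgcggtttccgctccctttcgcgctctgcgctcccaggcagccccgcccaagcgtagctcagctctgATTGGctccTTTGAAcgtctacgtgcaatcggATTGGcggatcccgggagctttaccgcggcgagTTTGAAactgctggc
Mcm6: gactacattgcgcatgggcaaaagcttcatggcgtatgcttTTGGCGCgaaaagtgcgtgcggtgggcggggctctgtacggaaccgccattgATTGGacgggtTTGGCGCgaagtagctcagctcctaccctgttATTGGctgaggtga
Mcm5: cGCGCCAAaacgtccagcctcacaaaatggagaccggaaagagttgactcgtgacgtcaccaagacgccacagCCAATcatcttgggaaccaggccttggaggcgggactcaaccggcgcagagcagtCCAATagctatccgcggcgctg
Rrm1: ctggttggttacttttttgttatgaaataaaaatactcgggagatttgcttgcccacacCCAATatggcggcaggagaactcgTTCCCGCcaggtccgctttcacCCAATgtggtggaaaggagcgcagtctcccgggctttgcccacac

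In 5 of the mitotic promoters shown (Top2a, Prc1, Cdc20, Ube2c and Cdk1) a CHR begins 30 or fewer bases before the start, with at least 1 CCAAT box upstream of it. Mki67 differs: its 2 CHRs begin 116 and 98 bases before the start, followed by an E2F site at 67. The replication promoters of Mcm6, Mcm5 and Rrm1 hold E2F and CCAAT elements and no CHR in these windows.

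Over the whole RefSeq promoter (250 bases before to 50 after a start), 32 members had an entry and 7 did not. A CHR was found in 16 of 32 (50%), against 17.3% of the 15614 measured genes with an entry. The CCAAT box was found in 24 of 32 (75%, against 41.7%) and an E2F site in 9 of 32 (28.1%, against 10.7%). Both a CHR and a CCAAT box were present in 15 members, against 7.94% of all these genes, and 5 members held none of the 3 elements. Matches of different elements overlapped in 2 of the members' promoters. A match is a description of the letters and not evidence of binding.

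**Figure D1:**
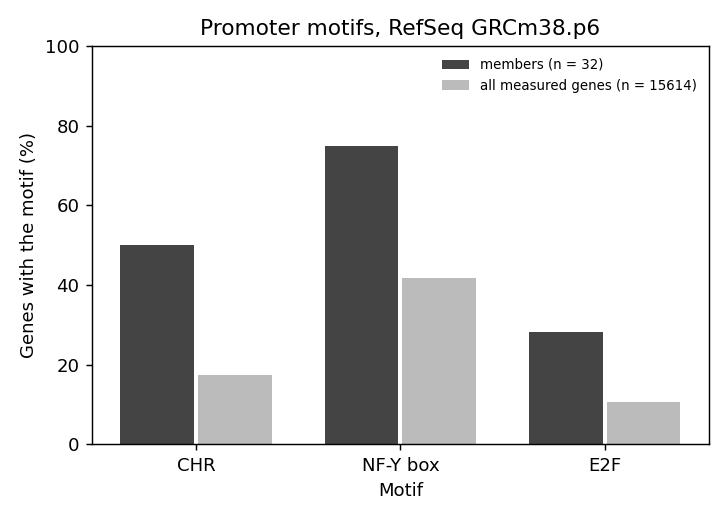
Share of genes (%) whose RefSeq promoter holds a CHR, a CCAAT box (marked as the NF-Y box) or an E2F site, for the 32 members with an entry (dark bars) and all 15614 measured genes with one (light bars). The members' bars stand at 50%, 75% and 28.1%, above the light bars at 17.3%, 41.7% and 10.7%.

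The CCAAT box was spread over all roles, in 5 of 7 licensing, 3 of 4 synthesis, 5 of 6 kinase, 3 of 5 kinetochore and 2 of 3 spindle genes, 2 of 3 cyclins or Cdk1 and all 4 proteolysis and chromosome genes. An E2F site was found in 6 of 7 licensing members, 1 of 4 synthesis genes, 1 of 3 cyclins or Cdk1 and 1 of 2 chromosome genes, and in 0 of the other roles. A CHR was found in 4 of 6 kinases, 3 of 5 kinetochore genes, 2 of 3 spindle genes, both proteolysis genes, both chromosome genes, and 2 of 3 cyclins or Cdk1. It was found in 1 of 7 licensing and 0 of 4 synthesis genes.

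Before any comparison, 2 arrays were found to go against the series title, which names male mice. The wildtype day 1 and null day 7 arrays had high Xist (12.40 and 12.35, against 5.37 to 5.83 on the other 4) and low levels of 3 Y-linked genes (4.53 to 5.21, against 8.94 to 10.72). The counts and medians for day 14 against day 1 and for genotype are given with and without these arrays. Without them the genotype-by-day comparison and the tests of day 7 have no residual degrees of freedom. The array medians lay between 7.72 and 7.81 on the log2 scale, on which all levels and differences are given. Foxj1, the targeted gene, was lower on each null array, by -0.79, -0.78 and -0.34 in order of age (limma adjusted p = 0.0573). Of 17 ependymal markers, 8 were lower in the null at an adjusted p under 0.05 in limma, against 0.667% of all genes. These were Tmem212, Ccdc153, Dynlrb2, Cfap43, Cfap44, Ak7, Enkur and Fam216b. The 9 that did not pass were Foxj1, Sntn, Rarres2 and Mia (-0.63 to -0.44) and S100b, Cd24a, Vim, Aqp4 and Acta2 (-0.28 to 0.01). The summed linear level of the 17 was 13168 to 15561 on the wildtype and 10536 to 12577 on the null arrays. That sum leans on the brightest markers, among them Vim and Cd24a (12.47 and 12.15 on the wildtype day 1 array). It is a description and does not test the ependymal label.

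The replication and mitosis genes fell between day 1 and day 14 as a block. At an adjusted p under 0.05 in limma (Benjamini-Hochberg over all genes), 35 of 39 fell, 0 rose and 4 did not pass, against 6.29% of all genes that fell. All 39 estimates were below 0, from -1.59 for Top2a to -0.25 for Ccne2, with a median of -0.86, while the median over all genes was -0.01. In 10 members the estimated decrease was over 2-fold. The 2 day 14 arrays lay below the 2 day 1 arrays for all 39 genes, against 29.4% of all genes, and below the other 4 arrays for 38 of 39, against 16.3%. The exception was Birc5. Over the same ages 11 of 11 oligodendrocyte markers rose, against 7.50% of all genes that rose, and 10 of 16 neuroblast markers fell. The part of these markers in the decrease was not tested. Since bulk tissue was measured, fewer dividing cells and less of each transcript per cell cannot be told apart.

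The decrease was present in each genotype. Day 14 was below day 1 for all 39 genes on the wildtype arrays (median -0.95) and for all 39 on the null arrays (median -0.69). Neither null array of that pair has high Xist. With age as a linear term and both high-Xist arrays left out, 24 of 39 fell, with a median of -0.85. With Xist as a covariate the number was 32.

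**Figure D2:**
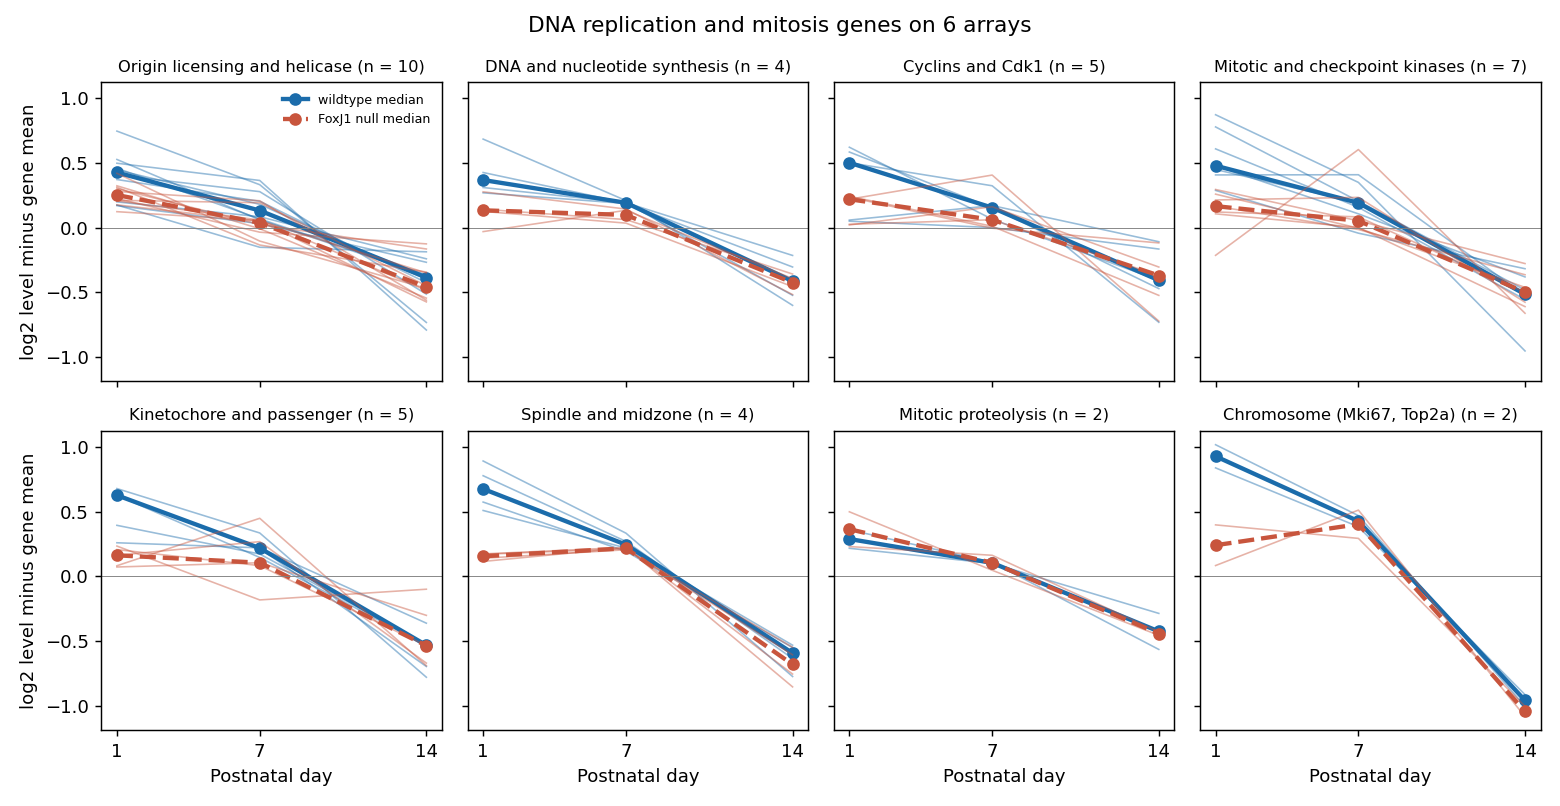
Log2 level of each member minus its mean over the 6 arrays (vertical axis) against postnatal day, in 8 panels by role. Thin lines are genes and thick lines with points are role medians, solid blue for wildtype and dashed red for FoxJ1 null (1 array per point and gene). The lines end below 0 at day 14 in all panels, and the wildtype medians start above the null medians at day 1 in all panels except that of proteolysis.

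Mki67, which encodes the proliferation antigen that coats mitotic chromosomes, and Top2a, the topoisomerase that untangles replicated DNA, had the most negative differences. At days 1, 7 and 14 Mki67 read 9.86, 9.41 and 8.11 in wildtype and 9.42, 9.32 and 8.02 in null tissue. Both day 14 arrays were over 1 log2 unit below the other 4, and the fitted change from day 1 was -1.58 (SE 0.14, limma adjusted p = 1.98e-04), or 2.98-fold. Top2a read 10.25, 9.70 and 8.23 on the wildtype and 9.32, 9.75 and 8.15 on the null arrays. Its day 14 levels were also the lowest, but the null day 1 array was below both day 7 arrays. The change was -1.59 (SE 0.21, adjusted p = 0.00142), or 3.02-fold. A second, dim Top2a probe set (mean level 3.52) changed by -0.50. Its mean difference between null and wildtype was 0.15, opposite in sign to that of the brightest, -0.32.

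Among the licensing genes 8 of 10 fell, with a median of -0.77. All 6 genes of the Mcm2 to Mcm7 helicase, the ring that is loaded at origins and unwinds DNA, passed the test. Mcm3 had the most negative difference of the role. It read 9.28, 8.86 and 7.80 in wildtype and 8.71, 8.58 and 7.96 in null, a change of -1.11 (SE 0.17, limma adjusted p = 0.00282). The wildtype range of Mcm3 was thus wider than the null range at both ends. Mcm7 read 9.71, 9.55 and 8.92 in wildtype and 9.76, 9.24 and 8.87 in null, and Mcm2 read 9.23, 8.97 and 8.39 in wildtype and 9.11, 8.78 and 8.24 in null. In both genes the levels were ordered by age within each genotype. Mcm7 changed by -0.84 (adjusted p = 0.00355) and Mcm2 by -0.86 (adjusted p = 0.00192). Mcm6, with 2 E2F sites in the window above, changed by -1.06 (SE 0.14), Mcm5 by -0.74 (SE 0.13), and Mcm4 by -0.70 (SE 0.14).

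Cdc6 and Cdt1 are loading factors that bring the helicase to origins, and the GINS subunits activate it. Cdc6 fell by 0.55 (adjusted p = 0.0225) and Gins1 by 0.79 (adjusted p = 0.00425). Cdt1 did not pass, with a difference of -0.41 and an adjusted p of 0.0538, nor did Gins2, with -0.39 and 0.0679. Cdt1 read 8.14, 7.81 and 7.78 in wildtype and 8.27, 7.99 and 7.80 in null. Its day 1 array was the highest in each genotype, while day 14 differed from day 7 by -0.04 in wildtype and -0.19 in null. Under 5 of the other settings tried, among them centring each array on its median (adjusted p = 0.0379), Cdt1 passed.

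All 4 synthesis genes fell. Rrm1 and Rrm2, the large and small subunits of the ribonucleotide reductase that makes deoxynucleotides, changed by -0.87 (SE 0.12, adjusted p = 0.00193) and -0.93 (SE 0.17, adjusted p = 0.00605). Rrm2 read 9.28, 8.81 and 8.0 on the wildtype and 8.73, 8.64 and 8.14 on the null arrays, a wildtype change of -1.28 and a null change of -0.58. Rrm2 and Pcna did not pass without both high-Xist arrays and with age linear (adjusted p = 0.0579 and 0.067). Rrm1 read 10.67, 10.44 and 9.72 in wildtype and 10.52, 10.39 and 9.73 in null, so that the genotypes differed by no more than 0.15 at any age. Pcna, the sliding clamp of the replicative polymerases, read 10.95, 10.87 and 10.38 in wildtype and 10.83, 10.75 and 10.33 in null. Only the day 14 arrays of Pcna stood apart, a change of -0.54 (SE 0.12, adjusted p = 0.0175). That call was lost without any 1 array of days 1 or 14 (adjusted p from 0.0541 to 0.139). Pcna had 2 probe sets that differed by at most 0.0137 on any array, so whether either measures Pcna alone cannot be told apart here. Tyms, thymidylate synthase, changed by -0.44 (adjusted p = 0.0494).

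Of the cyclins and Cdk1, 3 fell and 2 did not pass, with a median of -0.71. Cyclin E genes, which act at the entry to S phase, were the remaining members that did not pass. Ccne1 read 8.56, 8.51 and 8.34 on the wildtype arrays and 8.74, 8.50 and 8.39 on the null arrays, a difference of -0.28 (adjusted p = 0.176), and Ccne2 differed by -0.25 (adjusted p = 0.245). The S and G2 cyclin Ccna2 fell. It read 9.55, 9.12 and 8.50 in wildtype and 9.21, 8.98 and 8.45 in null, with each age below the one before it in both genotypes, a change of -0.91 (SE 0.13, adjusted p = 0.00203). The mitotic cyclin Ccnb2 changed by -0.71 (adjusted p = 0.0204). Cdk1, the kinase that both cyclins activate, read 8.72, 8.54 and 7.48 in wildtype and 8.43, 8.62 and 7.49 in null. Its 4 arrays of days 1 and 7 differed by at most 0.28 and all lay above the day 14 arrays, a change of -1.09 from day 1 (SE 0.14, adjusted p = 0.00108).

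All 7 kinases fell, with a median of -0.85. Plk1, which acts from mitotic entry to cytokinesis, read 8.90, 8.44 and 7.73 on the wildtype and 8.45, 8.27 and 7.92 on the null arrays, a change of -0.85 (SE 0.16, adjusted p = 0.00774). Aurka, the Aurora kinase of the centrosome and spindle, read 8.61, 8.28 and 8.0 in wildtype and 8.62, 8.37 and 8.04 in null. The genotypes ran within 0.10 of each other in Aurka, and the change was -0.59 (adjusted p = 0.0119). Without both high-Xist arrays and with age linear, Plk1 and Aurka did not pass (adjusted p = 0.0652 and 0.064), nor did they without the wildtype day 14 array (0.0687 and 0.0664). Aurka also did not pass without the null day 14 array (0.0938). Bub1b, a subunit of the spindle checkpoint, read 8.62, 8.05 and 7.36 in wildtype and 7.95, 7.84 and 7.23 in null, with the null array lower at each age. It changed by -0.99 (SE 0.15, adjusted p = 0.00319).

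Bub1, the checkpoint kinase of the kinetochore, had the largest SE of the 39. It read 8.32, 7.80 and 6.50 in wildtype but 7.24, 8.05 and 6.79 in null, so the null day 1 array lay between the day 7 and day 14 levels. The change from day 1 to day 14 was -1.14 (SE 0.28, adjusted p = 0.0264). Without the wildtype day 1 array it was -0.46 (adjusted p = 0.0875), without the wildtype day 14 array -0.78 (0.0619), and without both high-Xist arrays and with age linear -0.89 (0.15). Aurkb, Melk and Ttk, the other kinases, changed by -0.79, -0.78 and -0.88.

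All 5 kinetochore and passenger genes fell, with a median of -0.95. Cenpf, a large protein of the outer kinetochore, read 8.57, 8.23 and 7.11 on the wildtype and 8.05, 8.16 and 7.22 on the null arrays. The day 14 arrays were the lowest, and the change was 2.21-fold (SE 0.16 on the log2 scale, adjusted p = 0.00181). Cdca8, borealin of the passenger complex, read 8.19, 7.71 and 7.03 in wildtype and 7.77, 7.65 and 7.03 in null, a change of -0.95 (SE 0.14, adjusted p = 0.00243). Cenpe, the kinetochore motor, changed by -1.05 and Ndc80, which binds microtubules there, by -0.50. Birc5, the passenger subunit survivin, read 7.58, 7.36 and 6.66 in wildtype and 7.42, 7.01 and 7.09 in null. The null day 14 array of Birc5 was above the null day 7 array, the only such case among the 39, and the change from day 1 was -0.63 (adjusted p = 0.046).

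All 4 spindle genes fell, with a median of -1.05. Tpx2, which activates Aurora A on spindle microtubules, read 9.46, 8.95 and 8.05 on the wildtype and 8.80, 8.90 and 7.93 on the null arrays, a change of -1.14 (SE 0.16, adjusted p = 0.00202). Prc1, which bundles the midzone microtubules before cytokinesis, read 8.94, 8.38 and 7.27 in wildtype and 8.22, 8.27 and 7.19 in null. In both genes the null levels of days 1 and 7 were close while the wildtype level was highest at day 1. Prc1 changed by -1.35 (SE 0.17, adjusted p = 0.00107). Nusap1 and Hmmr, which bind spindle microtubules, changed by -0.86 and -0.95.

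Both proteolysis genes, which serve the anaphase-promoting complex, fell. Cdc20, its mitotic activator, read 8.24, 7.99 and 7.32 in wildtype and 8.38, 7.93 and 7.42 in null, a change of -0.94 (SE 0.13, adjusted p = 0.00149). Ube2c, its ubiquitin-conjugating enzyme, read 8.10, 7.99 and 7.60 in wildtype and 8.12, 8.05 and 7.46 in null, a change of -0.58 (adjusted p = 0.0144). Ube2c did not pass without the null day 1 array (adjusted p = 0.0634) or the null day 14 array (0.186). For these 2 genes the day 1 arrays of the genotypes were within 0.14 of each other.

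**Figure D3:**
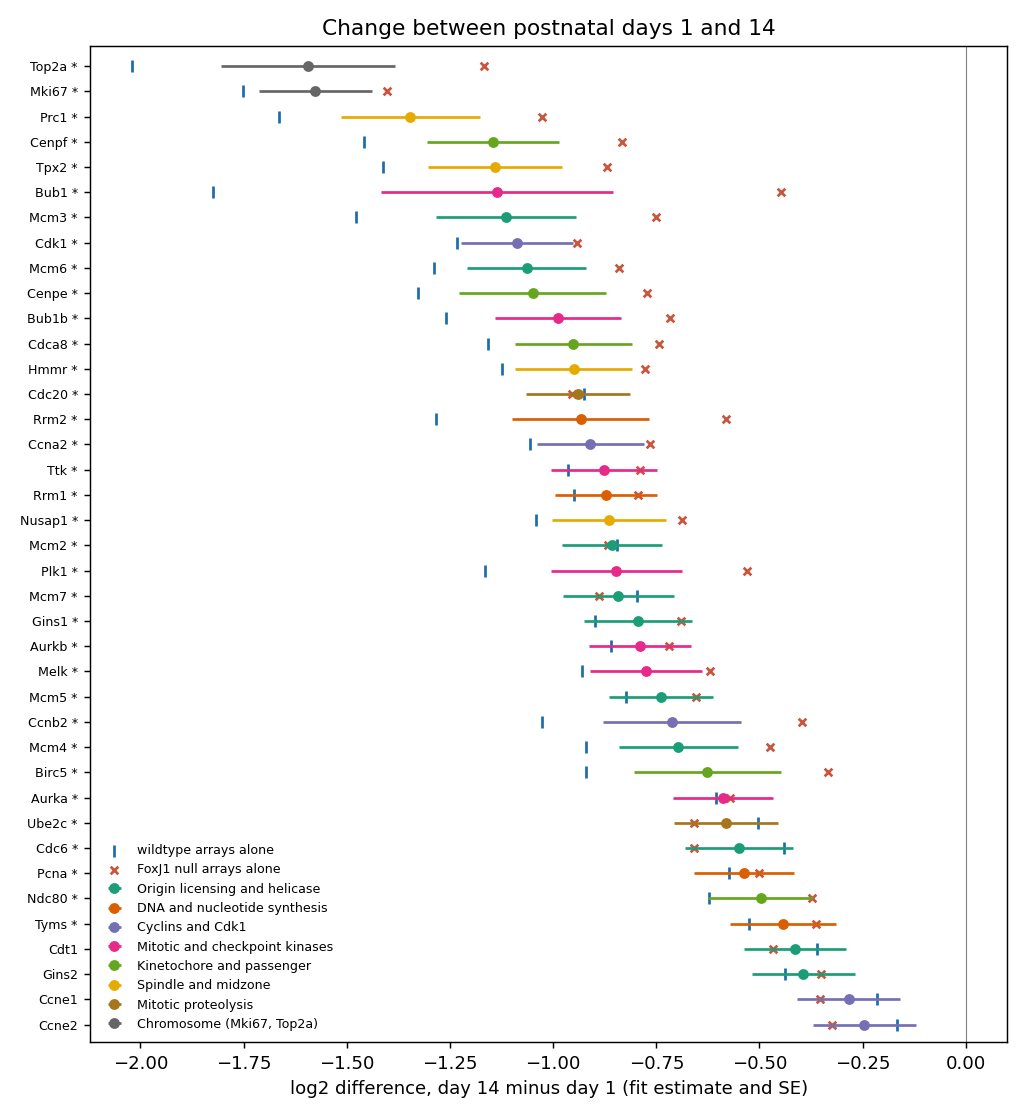
Log2 difference between days 14 and 1 for each of the 39 genes, ordered by size. Points with bars are fitted estimates and SEs coloured by role, blue ticks the wildtype arrays alone, red crosses the null arrays alone, and an asterisk marks adjusted p under 0.05. All 3 marks lie left of 0 for each gene, from Top2a (-1.59) to Ccne2 (-0.25), and the 4 genes without an asterisk are at the bottom.

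The decrease was set beside the promoter elements. The 16 members with a CHR had a median difference of -0.94 between days 14 and 1 (from -1.59 to -0.50) and the 16 without one -0.81 (from -1.14 to -0.28). The 24 members with a CCAAT box had a median of -0.94, and the 8 without one -0.52, with no value under -0.86. With and without an E2F site the medians were -0.87 and -0.86. These are descriptions of overlapping sets that also differ in role.

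The week from day 7 to day 14 held the larger estimates for most members. The exceptions were Mcm5, Cdt1, Gins2, Ccne1 and Birc5, with the more negative estimate between days 1 and 7. From day 7 to day 14, 20 of 39 genes fell and 0 rose, against 1.87% of all genes that fell. All 39 estimates were below 0, with a median of -0.59. The wildtype median was -0.69 (39 of 39 below 0, from 2 arrays without high Xist) and the null median -0.54 (38 of 39, all but Birc5). Top2a was 1.47 lower at day 14 than at day 7 in wildtype and 1.60 lower in null, Mki67 1.30 lower in both, and Cdk1 1.05 and 1.13 lower. The count depended on single arrays. It was 4 without the null day 7 array, 9 without the wildtype day 14 array, 12 without the wildtype day 7 array, and 32 without either day 1 array.

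Between day 1 and day 7, 0 of 39 genes passed in limma, against 0.00502% of all genes that fell, while 9 members had an unadjusted p under 0.05. The median was -0.20, with 35 of 39 estimates below 0, compared with 60.3% of all genes. Both day 7 arrays lay below both day 1 arrays for 18 of 39, against 26.5% of all genes. Comparisons of the 3 ages share arrays, so their values are not independent of each other.

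The first week differed by genotype in these arrays, each with 1 array per point. On the wildtype arrays 37 of 39 genes were lower at day 7 than at day 1 (median -0.33), and on the null arrays 25 of 39 (median -0.08). Over all 19938 genes the null arrays gave 12392 lower and the same median of -0.08, and the wildtype arrays 9908 lower and a median of 0.0018. The members' null median was thus close to that of all genes. In 13 genes the wildtype level was lower at day 7 and the null level higher, against 15.7% of all genes. Bub1 was 0.52 lower in wildtype and 0.82 higher in null, Top2a 0.55 lower and 0.43 higher, and Cenpe 0.41 lower and 0.37 higher. The licensing genes were lower at day 7 on both sets of arrays in 10 of 10 cases, while 4 of 4 spindle genes were higher at day 7 on the null arrays. Both arrays with high Xist enter this comparison, 1 on each side, so it has no form without them.

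**Figure D4:**
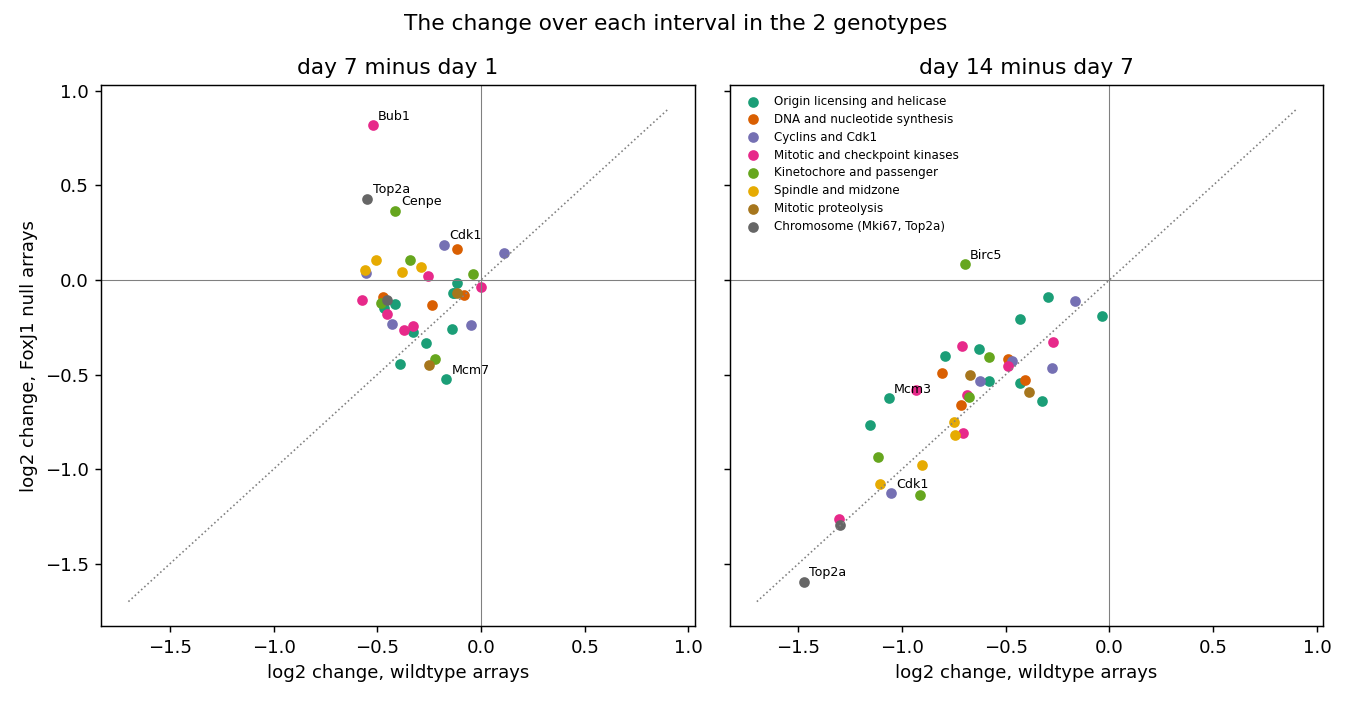
Log2 change on the null arrays (vertical axis) against that on the wildtype arrays (horizontal axis) for each of the 39 genes, coloured by role, from day 1 to day 7 (left) and from day 7 to day 14 (right); the dotted line marks equal change. On the left 13 points lie above 0 on the null axis and below 0 on the wildtype axis, led by Bub1, and on the right all points except Birc5 lie below 0 on both axes.

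The genotype comparison asks whether loss of FoxJ1 changed these genes over the 3 ages. In limma 0 of 39 passed, against 0.667% of all genes that were lower in the null, and 1 member had an unadjusted p under 0.05. The median difference, null minus wildtype, was -0.13, with 34 of 39 below 0, while the median of all genes was -0.01. The null array was lower at all 3 ages in 13 of 39, against 15.9% of all genes. Bub1b had the most negative mean difference, -0.33 ± 0.29 (SD over the 3 ages, unadjusted p = 0.0247, limma adjusted p = 0.721), followed by Top2a with -0.32 ± 0.53, Prc1 with -0.30 ± 0.36 and Tpx2 with -0.28 ± 0.34. Cdt1, with 0.11 ± 0.08, and Ccne1, with 0.08 ± 0.10, had the most positive. For all of these except Bub1b and Cdt1 the SD was larger than the mean difference.

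The difference between the genotypes sat at day 1. There the null array was lower for 31 of 39 genes, with a median of -0.28, against 29 genes and -0.06 at day 7 and 19 genes and 0.01 at day 14. The medians of all 19938 genes were 0.03, -0.06 and -0.02, with 8875, 12643 and 11042 lower. At day 7 the members' median was thus close to that of all genes. Bub1 was 1.09 lower on the null day 1 array, Top2a 0.93, Prc1 0.72, Bub1b 0.67 and Tpx2 0.66. The linear levels of the 39 genes summed to 18959 on the wildtype and 15457 on the null array at day 1. The day 7 sums were 15427 and 14521, and those of day 14 were 9460 and 9488. The wildtype day 1 array was the highest of the 6 for 29 of 39 genes, against 13.3% of all genes. This is 1 of the high-Xist arrays, so at day 1 genotype and that difference cannot be told apart. On the wildtype and null day 1 arrays the summed linear level was 23075 and 15065 for 14 radial glia and stem cell markers and 56262 and 55717 for 16 neuroblast markers. The sum of 13 choroid plexus markers was lower in null at each age, at 26199 and 12024 at day 1, 25575 and 12418 at day 7, and 26207 and 10274 at day 14. That sum leans on Ttr (14.35 and 13.24 at day 1), and the median difference of the 13 was -0.91, -0.20 and -0.86 in order of age. The radial glia and stem cell sum leans on Fabp7 (13.16 and 11.93 at day 1), and the median difference of the 14 was -0.33 at that age. The part of these lists in the day 1 difference was not tested. Leaving out either day 1 array, which removes that age from the genotype difference, gave a median of -0.03, with 26 of 39 below 0. Leaving out both high-Xist arrays and making age linear gave -0.19, with 33 of 39 below 0. That fit sets wildtype days 7 and 14 against null days 1 and 14, so its value depends on a linear course with age. The null median changes were -0.08 from day 1 to 7 and -0.54 from day 7 to 14. It therefore cannot tell whether a genotype difference remains without those arrays.

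**Figure D5:**
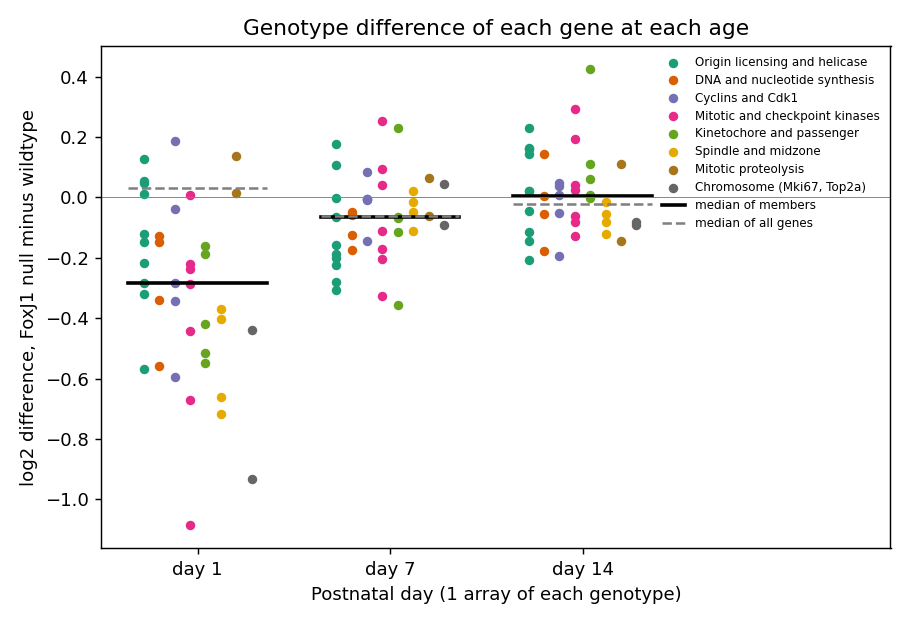
Log2 difference between the null and wildtype arrays for each of the 39 genes at each postnatal day, coloured by role, with the median of members (solid bar) and of all genes (dashed bar); each point rests on 1 array per genotype. The members' median is -0.28, -0.06 and 0.01 in order of age, and the lowest points at day 1 are Bub1 and Top2a.

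A model of genotype by postnatal day tested whether the change over the 13 days differed between null and wildtype. In limma 0 of 39 passed, against 0% of all genes in either direction, and 3 members had an unadjusted p under 0.05: Rrm2 (0.0359), Plk1 (0.0411) and Mcm3 (0.0476). The estimated difference was above 0 in 31 of 39 and its median was 0.29, a shallower decrease on the null arrays. Over all genes the median was -0.05, with 57.3% below 0. The wildtype day 1 array, which has high Xist, enters each estimate, so genotype and that difference cannot be told apart here. Bub1 had the highest value, 1.34 (SE 0.63). The model takes age as a straight line, so a course that is not straight adds to these errors. The members' median change was -0.20 from day 1 to day 7 and -0.59 from day 7 to day 14. The interval these errors leave is wide, so the test does not show that the decreases were alike.

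Other genes of the same processes were counted from lists that hold none of the 39. Of 43 further replication genes, 20 fell between days 1 and 14, 0 rose and 23 did not pass (median -0.44). Over all genes 6.29% fell. Among the replication genes Chaf1b, a chromatin assembly subunit, changed by -1.58 and Dbf4, the activator of the Cdc7 kinase, by -1.26. Rfc3 of the clamp loader changed by -1.13 and the ubiquitin ligase adaptor Dtl by 1.99-fold. Of 62 further mitosis genes, 49 fell, against the same 6.29% of all genes, 0 rose and 13 did not pass (median -0.77). The nuclear lamin Lmnb1 changed by -1.41, the cytokinesis factor Ect2 and the kinetochore scaffold Knl1 by -1.36, and the spindle pole protein Aspm by -1.28. All 8 of these named genes passed (limma adjusted p from 1.98e-04 to 0.00127). Between the genotypes 0 of either list passed, against 0.667% of all genes that were lower in the null.

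A list of G1 regulators and cell cycle exit genes moved less as a whole. Of 32 measured, 10 fell, 0 rose and 22 did not pass, with a median of -0.24. Over all genes 6.29% fell and the median was -0.01. Myc, a growth-promoting transcription factor, read 9.62, 9.31 and 8.12 on the wildtype and 10.05, 9.47 and 8.51 on the null arrays, a change of -1.52 (SE 0.13, adjusted p = 1.77e-04). The D-type cyclin Ccnd2 read 12.67, 12.28 and 11.37 in wildtype and 12.60, 11.94 and 11.26 in null, a change of -1.32 (adjusted p = 3.21e-04). Both were lowest on the day 14 arrays. Ccnd1, the D-type cyclin named here after its values were seen, differed by -0.08 (adjusted p = 0.808). The Cdk inhibitor Cdkn1c fell by 0.83 and the MuvB subunit Lin9 by 0.80.

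Markers of other cell types moved with age in the same tissue. Over all genes 7.50% rose between days 1 and 14 and 6.29% fell. All 11 measured oligodendrocyte markers rose between days 1 and 14, and their summed linear level went from 2847 to 2858 on the day 1 arrays to 19673 to 26835 on the day 14 arrays. Of 10 astrocyte markers 9 rose and 1 fell, with sums of 19122 to 22548 at day 1 and 37239 to 46095 at day 14. Of 12 neuron markers 8 rose (24920 to 28470, then 42003 to 48621), as did 9 of 12 microglia markers (4506 to 4633, then 7003 to 11667) and 6 of 10 oligodendrocyte precursor markers (5140 to 5970, then 9332 to 9774).

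Markers of young neurons moved the other way. Of 16 neuroblast markers, 10 fell, 1 rose and 5 did not pass, and their sum went from 55717 to 56262 at day 1 to 31102 to 39260 at day 14. Of 14 radial glia and stem cell markers 3 fell and 2 rose (15065 to 23075, then 16550 to 17099), and of the 17 ependymal markers 1 fell and 3 rose. Of 13 choroid plexus markers 1 fell and of 11 endothelial and mural markers 1 rose, near the 6.29% and 7.50% of all genes that did so. Of 10 meningeal and 2 erythroid markers 0 passed. Cd24a stands in both the ependymal and neuroblast lists, and Aqp4 in both the ependymal and astrocyte lists.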

How the data were processed

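The authors deposited log2 expression levels for 35557 probe sets and 6 arrays. Per the submitters' processing notes the method was RMA, with software and version not given in the sources used here. Per the labels' protocols, tissue was frozen after RNAlater and laser captured, and Trizol-extracted RNA was amplified and labelled with biotin. No further normalization was applied. The probe table gave 21789 probe sets 1 gene symbol, 1621 several and 12147 none. RefSeq names (GRCm38.p6) matched 21698 of them and changed 0. Of a gene's single-gene probe sets the brightest by mean represented it, for 19938 genes in all (999 had several). Dim genes were kept; 7 members lay in the lowest tertile of mean levels. The deposited table held 0 columns of other samples. The authors' deposited table of selected probe sets was not used here.

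R 4.3.3 with limma 3.58.1 (lmFit, eBayes) fitted genotype and age as a factor to all 6 arrays (2 residual and 7.51 prior degrees of freedom). A second fit had genotype, day and their product (2 and 7.40), reported over 13 days. P-values are 2-sided, adjusted by Benjamini-Hochberg over all 19938 genes, with a threshold of 0.05. The number of arrays limits the precision, and the code was tested on simulated data. Values on every array are given for the 2 members with the highest mean level and the one with the most negative day 14 difference in each role, and for the 4 most negative and 2 most positive genotype differences; Birc5 and others outside that rule were named after their values were seen. For each list of other genes the 4 largest differences are named. Members, lists and tests were chosen with earlier results of these data known. Alternatives covered normalization, dim genes, probe sets, the variance prior, covariates and left-out arrays. Promoters came from RefSeq (GRCm38.p6). Python 3.11.15 with matplotlib 3.10.9, pandas 2.3.3 and numpy 2.4.6 made the other tables and the figures.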

Additional observations from a re-analysis of the deposited data

Results flagged for a closer look

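In 14 genes the level moved in opposite directions between days 1 and 7 on the wildtype and null arrays. Of these, 11 were kinase, kinetochore, spindle or chromosome genes, roles that hold 7, 5, 4 and 2 of the 39. In 13 of the 14 the wildtype level was lower and the null level higher at day 7, against 15.7% of all genes. With 1 array per genotype and age the difference between the genotypes was not tested at this step. The null change minus the wildtype change was 1.34 for Bub1, 0.98 for Top2a, 0.78 for Cenpe, 0.61 for both Tpx2 and Prc1, and 0.59 for Ccnb2. It was 0.45 for Cenpf, 0.42 for Hmmr, 0.36 for both Cdk1 and Nusap1, 0.28 for both Tyms and Ttk, and 0.0724 for Ndc80. Melk went the other way by -0.0398, with a wildtype change of 0.0015. The wildtype day 1 and null day 7 arrays, both with high Xist, enter each of these values.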

How the results depend on the processing

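The number of genes that fell between days 1 and 14 was 35 and lay between 24 and 37 under the other settings that kept all 39 genes, with all 39 estimates below 0 under each. Leaving out 1 array at a time gave 25 to 35. Leaving out genes below the median of mean levels gave 17 of the 18 still tested, a fall set by fewer genes tested. For day 14 against day 7 (20 genes) that filter gave 13 of 18, Xist as a covariate 14, centring on array medians 30, and leaving out 1 array 4 to 32; the cause was not tested. For day 7 against day 1 leaving out 1 array gave 0 to 1 (Bub1, higher by 0.83 without the wildtype day 1 array, adjusted p = 0.0208). The genotype and slope comparisons gave 0 of the 39 genes under every setting run. Among the genes checked singly, the day 14 against day 1 call was lost for Pcna without any 1 array of days 1 or 14 (adjusted p from 0.0541 to 0.139), for Aurka without either day 14 array (0.0664 and 0.0938), for Ube2c without either of the null arrays of days 1 and 14 (0.0634 and 0.186), for Plk1 and Bub1 without wildtype day 14 (0.0687 and 0.0619), and for Bub1 without wildtype day 1 (0.0875) or with a robust prior (0.111). Without both high-Xist arrays and with age linear, 24 of the 35 calls were kept; among the genes checked singly it was lost for Pcna, Rrm2, Aurka, Plk1 and Bub1 (0.0579 to 0.15). The fit pairs the genotypes by age; with age left out 0 of the 39 genes passed between the genotypes.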
